A study of Mus musculus with 30 samples.

Results

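Terminal ileum of C3H/HeOuJ mice that received a microbiota late in life was compared with terminal ileum of mice that had carried one throughout, at 10 weeks of age. The libraries were chosen by their sample titles and numbered 6 of the 30 in the series: 3 of the group labelled COL, which were germ-free mice given an SPF (specific pathogen free) microbiota in week 5 of age, and 3 of the group labelled SPF, which were raised with that kind of microbiota. All 6 came from mice of the same strain and age with no other treatment. Mice of the COL group had thus been colonized for 5 weeks. Each library was a 3′ tag library of total RNA, so a read marks the end of a transcript and the number of reads does not scale with transcript length. Levels are given as CPM, counts per 1000000 assigned reads after scaling of the libraries, and differences as COL minus SPF on the log2 scale. Values of germ-free (GF) ileum at 10 weeks, of COL and SPF ileum at 6 weeks (1 week after colonization) and of untreated colon at 10 weeks, with 3 libraries in each of these groups, are given beside the results where they bear on them. The labels name no sex, cage, litter, source colony or time of day. They call the libraries triplicates without saying whether each is another mouse, so the p-values stand for the scatter of these libraries alone, part of which may be technical.

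The terminal ileum absorbs bile acids and the fat and sugar that the upper gut has left, and it houses Paneth cells, Peyer's patches and many lymphocytes that lie between the epithelial cells. A microbiota that arrives is met by antimicrobial proteins of the epithelium, by IgA from plasma cells and by a growing population of intraepithelial T cells. Heat shock proteins are chaperones that fold proteins and protect cells from damage, and gut epithelium makes them at a level that depends on bacteria and on stress.

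The 3 COL libraries held 5495811, 5555884 and 5609819 reads assigned to genes. The SPF libraries were less even, with 6773586, 4929233 and 2233837 reads. The third SPF library stood apart in depth and in content. Its correlation with the other 5 libraries on the log scale was 0.909 to 0.933, against 0.931 to 0.966 among those 5, and its 4 smooth muscle markers summed to 43.2 CPM, against 572 to 949 in the other 5. The part of the low depth of the third SPF library in its correlations was not tested. The first SPF library stood apart in its B cell follicle markers, which summed to 799 CPM, against 14.4 and 7.68 in the other SPF libraries and 128 to 438 in COL. Its Paneth cell markers summed to 2265 CPM, against 4775 and 6619 in the other SPF libraries and 3226 to 3370 in COL. Where leaving out either library changed a call of a gene or list named below, that is given beside it. Markers of ileal enterocytes summed to 24550, 17583 and 16003 CPM in COL and 20533, 35144 and 36994 CPM in SPF, so that 2 COL libraries lay below all SPF libraries. Markers of colon epithelium summed to 141 to 273 CPM, and no read of the haemoglobin genes Hba-a1, Hbb-bs and Hbb-bt was counted. Reads that match several places were not counted, so this does not show that blood was absent. In bulk tissue, fewer cells of a type and less RNA per cell cannot be told apart.

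Few genes separated the ileum of late colonized mice from that of lifelong colonized mice. Of 13233 genes tested with edgeR's quasi-likelihood test, 9 rose in COL (0.068% of those tested) and 3 fell (0.0227%) at a Benjamini-Hochberg adjusted p under 0.05. Of the 9 genes that rose, Hspa1b, Hsp90aa1 and Dnaja1 are on the heat shock list described below. The others were Ahsa2, Stip1, Cacybp, Efna2, Tnc and Banp, and the 3 that fell were Fabp1, Tm4sf4 and Aldh1a7. At an unadjusted p under 0.05 stood 1055 genes, and the median difference of all genes tested was -0.02. All 3 COL libraries lay above all 3 SPF libraries for 650 genes (4.91%) and below them for 702 (5.3%). The count of 12 calls moved with single libraries: it was 5 without the second or without the third COL library, 97 without the first SPF library and 7 without the second SPF library. DESeq2 called 47 genes, among them all 12. A fit of only the 6 libraries, with fewer samples to estimate the spread, called 4 genes, of which Ahsa2 and Hspa1b were the 2 among the 12. A fit of all 30 libraries called 7, of which 6 were among the 12: Ahsa2, Hspa1b, Hsp90aa1, Efna2, Tnc and Fabp1. By comparison, COL differed from GF ileum of the same age in 1209 genes (9.14%) and SPF from GF in 821 (6.2%). These comparisons share their libraries with the main one.

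Hspa1b had the largest fold difference of the 12 called genes. Hspa1b, an inducible Hsp70 that folds damaged proteins, stood at 428, 476 and 767 CPM in the COL libraries and at 24.1, 28.7 and 39.4 CPM in the SPF libraries. No SPF library came within a factor of 10 of a COL library, the group means (557 ± 183 and 30.8 ± 7.81, SD, n = 3) differed 18.1 times, and the log2 difference was 4.21 ± 0.58 (SE, adjusted p = 0.0185, edgeR). Its near-identical neighbour Hspa1a stood at 236, 251 and 328 CPM against 10.2, 9.78 and 22.6, a log2 difference of 4.37 ± 0.76 that missed the threshold (adjusted p = 0.0661) and passed it with only the 6 libraries (6.32e-05) and with all 30 (0.0121). Reads that match both copies were not counted, so the split between them is uncertain. In GRCm38, Hspa1b lies at chr17:34956436-34959238 and Hspa1a at chr17:34969190-34972156, both on the minus strand. GF ileum had uneven levels of Hspa1b, at 94.3, 25.4 and 65.6 CPM, which lay below all COL libraries and overlapped SPF.

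Hsp90aa1, the inducible cytosolic Hsp90 (chr12:110690605-110702728, minus strand), rose from 99.1, 75.3 and 74.4 CPM in SPF to 166, 186 and 236 CPM in COL, a log2 difference of 1.24 ± 0.19 (adjusted p = 0.00721). Ahsa2, a homologue of the activator of the Hsp90 ATPase, had the smallest adjusted p of all genes (0.000685): it stood at 60, 62.7 and 66.7 CPM in COL and at 24.8, 22.2 and 24 CPM in SPF, and the spread within each group was small beside the gap. Ahsa2 (chr11:23487882-23498030, minus strand) overlaps Usp34 on the other strand, and the strand setting of the counting is not given in the sources used here. Usp34 itself stood at 130 ± 4.8 CPM in COL and 129 ± 21.1 CPM in SPF, a log2 difference of 0.00. Stip1, which joins Hsp70 to Hsp90, rose from 71.5, 57.7 and 73.9 to 121, 198 and 127 CPM, by 1.14 ± 0.22 on the log2 scale (adjusted p = 0.04). Dnaja1, a J-domain partner of Hsp70, rose from 134, 123 and 222 to 351, 286 and 322 CPM, by 1.01 ± 0.20 (adjusted p = 0.04). Cacybp, which binds calcyclin and a ubiquitin ligase, rose from 42.7, 38.5 and 41.8 to 60.2, 82.6 and 80.7 CPM, by 0.86 ± 0.17 (adjusted p = 0.04). In none of these did a COL library overlap an SPF library. Ahsa2 and Hsp90aa1 remained called without any 1 of the 6 libraries, but with only the 6 libraries in the fit Hsp90aa1 lost the call (adjusted p = 0.134), as did Stip1 (0.280), Dnaja1 (0.403) and Cacybp (0.402). Hspa1b lost the call without the third COL, the second SPF or the third SPF library (largest adjusted p 0.0927). Dnaja1 lost it without any 1 COL library or the second SPF library (largest 0.162), and Stip1 and Cacybp without the second or the third library of either group (largest 0.227 and 0.197).

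**Figure D1:**
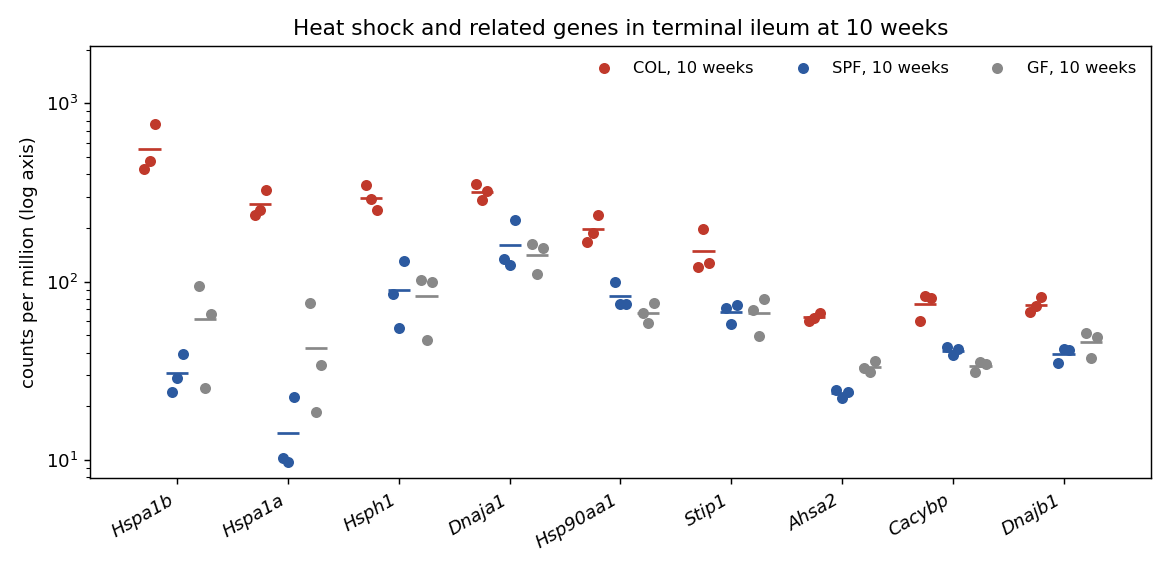
CPM (log axis) of 9 heat shock and related genes in COL, SPF and GF terminal ileum at 10 weeks, with 1 point per library and a bar at each group mean. For each gene the 3 COL points lie above the 3 SPF points, with the widest gap for Hspa1b (428 to 767 against 24.1 to 39.4).

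The list of 15 heat shock genes moved together in direction. All 15 were tested, 3 rose, none fell, and 12 had all COL libraries above all SPF libraries, where 4.91% of all genes did. The median log2 difference was 0.98, against -0.02 for all genes tested, and DESeq2 called 9 of the 15. Hsph1, an Hsp110 that recharges Hsp70, stood at 347, 289 and 251 CPM in COL and 85, 55.1 and 130 in SPF, a log2 difference of 1.74 that missed the threshold (adjusted p = 0.0588) and passed it without the third SPF library (2.07, adjusted p = 0.0196). Dnajb1 (0.92), Hspa4l (1.08), Chordc1 (0.95), Bag3 (0.98) and the constitutive Hspa8 (0.86) and Hsp90ab1 (0.63) had differences of the same sign that did not pass. The mitochondrial chaperones differed less, with 0.20 for Hspd1 and 0.57 for Hspe1, which passed without the first COL library (0.83, adjusted p = 0.0265). Hsf1, the transcription factor that drives the heat shock response, stood at 17.4, 19.7 and 12.8 CPM in COL and 18, 18 and 6.72 in SPF, and these overlapped. Leaving out 1 library gave medians of 0.93 to 1.09, and the number of members called was 1 without the third COL or the second SPF library, 2 without the second COL library and 3 otherwise. The 3 called without the third SPF library were Hsp90aa1, Dnaja1 and Hsph1, with Hspa1b no longer among them.

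Genes that change with sampling or stress in other ways were examined beside the chaperones. Of 15 tested immediate-early genes none passed and the median was 0.13. Of 20 genes of endoplasmic reticulum stress none passed with edgeR. Of these, 6 lay above all SPF libraries and 1 below (4.91% and 5.3% of all genes did). The median was 0.24, or 0.04 without the first SPF library and 0.37 without the third. Herpud1, which helps to clear misfolded proteins from that compartment, stood at 278, 230 and 342 CPM against 162, 165 and 174 (0.76, adjusted p = 0.0661). DESeq2 called Herpud1 and 1 other gene of the list, Dnajb9 (0.75, DESeq2 adjusted p = 0.0333). Among 19 clock genes none passed with edgeR, and 2 lay above and 2 below, beside the same 4.91% and 5.3% of all genes. DESeq2 called Per2 (adjusted p = 0.0443). Per2, a repressor of the clock, stood at 40.7, 29.6 and 47.7 CPM in COL and 20.7, 12.6 and 16.8 in SPF, Nr1d1 at 37.5, 40.5 and 38.7 against 64.1, 85.2 and 104, and Usp2 at 54, 69 and 40.4 against 77.5, 76.9 and 165. Usp2 passed without the first SPF library (-1.12, adjusted p = 0.046). These levels moved with the chaperones between the groups, and their part in the chaperone difference was not tested.

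Promoter windows of the chaperone genes are shown because members of this list moved together. They were taken from RefSeq on GRCm38.p6, each with 250 bases before and 50 after a transcription start, and searched on both strands for the paired heat shock unit GAANNTTC or the same unit in the other orientation, TTCNNGAA, where overlapping matches were counted apart. Of the 15 list genes, 11 had a window and 9 of these held a unit in at least 1 window, and 5 held 2 or more. The windows of Hspd1 and Hspe1 overlap, as these genes face away from 1 shared start region, and Hspa1a and Hspa1b are near-identical copies, so the 9 are not independent. A unit was held by 17.0% of all 27025 symbols and by 15.1% of all 32851 windows in that RefSeq set. At least 2 units in 1 window were held by 597 of those symbols and by 1.96% of the windows. At least 3 units were held by 0.256% of the windows. Of the 12 called genes, 10 had a window, and only Hspa1b and Dnaja1 held a unit. Windows of Ahsa2, Stip1, Cacybp, Efna2, Tnc, Fabp1, Tm4sf4 and Aldh1a7 held none, which says only that these letters are not in them. The windows below run 5′ to 3′ on the strand of the gene, with matches in capitals. They are chr17:34959189-34959488 (minus) for Hspa1b, chr4:40722218-40722517 (plus), the first of 3 windows of Dnaja1, chr5:149636287-149636586 (minus) for Hsph1, which holds the longer run GAANNTTCNNGAA or TTCNNGAANNTTC, as do 0.603% of all windows, and chr9:18292017-18292316 (plus) for Chordc1, with 5 units.
Hspa1b: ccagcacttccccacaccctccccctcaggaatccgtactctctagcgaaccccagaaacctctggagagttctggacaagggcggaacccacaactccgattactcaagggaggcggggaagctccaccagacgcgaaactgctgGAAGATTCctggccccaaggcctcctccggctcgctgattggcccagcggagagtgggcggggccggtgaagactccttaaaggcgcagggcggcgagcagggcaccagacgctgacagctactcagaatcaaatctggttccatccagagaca
Dnaja1: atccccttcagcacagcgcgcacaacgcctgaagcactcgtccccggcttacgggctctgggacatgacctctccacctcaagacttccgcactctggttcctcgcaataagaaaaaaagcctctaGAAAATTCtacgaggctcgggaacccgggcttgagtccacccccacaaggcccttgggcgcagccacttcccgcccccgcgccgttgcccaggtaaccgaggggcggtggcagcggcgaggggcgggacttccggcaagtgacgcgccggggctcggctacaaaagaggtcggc
Hsph1: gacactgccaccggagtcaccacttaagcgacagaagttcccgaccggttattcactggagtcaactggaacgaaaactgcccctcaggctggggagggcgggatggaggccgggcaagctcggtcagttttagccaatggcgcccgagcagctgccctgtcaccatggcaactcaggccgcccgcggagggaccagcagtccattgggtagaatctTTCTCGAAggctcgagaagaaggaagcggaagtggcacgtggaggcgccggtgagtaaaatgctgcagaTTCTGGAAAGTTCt
Chordc1: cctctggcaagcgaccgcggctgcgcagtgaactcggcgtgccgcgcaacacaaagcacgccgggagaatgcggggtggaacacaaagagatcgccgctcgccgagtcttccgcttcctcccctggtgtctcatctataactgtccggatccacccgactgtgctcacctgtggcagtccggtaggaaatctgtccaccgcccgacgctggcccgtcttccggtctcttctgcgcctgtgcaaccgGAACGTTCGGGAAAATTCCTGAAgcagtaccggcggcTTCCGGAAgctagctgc

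The window of Hspa1b, which has the widest difference of these 4 genes, holds 1 unit, whereas Chordc1 holds 5 with a log2 difference of 0.95. These are 4 of the 11 list genes with a window. Whether the number of units goes with the size of the difference was not tested.

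Efna2 encodes ephrin-A2, a membrane-anchored ligand of Eph receptors, and lies at chr10:80179482-80190010 on the plus strand. It stood at 14.8, 11.6 and 7.01 CPM in COL and at 1.86, 2.6 and 2.4 CPM in SPF, 4.87 times higher by group means and by 2.30 ± 0.39 on the log2 scale (adjusted p = 0.0114). The levels of COL ileum did not separate from those of GF ileum, at 9.84, 10.9 and 13.4 CPM (log2 difference -0.03, adjusted p = 0.977), while SPF lay below GF by 2.34 (adjusted p = 0.000349). The same order held in the other groups of the series. Across all 30 libraries, scaled together, the lowest of the 18 GF and COL libraries stood at 7.20 CPM and the highest of the 12 SPF libraries at 6.64 CPM, in ileum and colon, at both ages and with or without dextran sulfate sodium (DSS). Efna2 was the only 1 of 13807 genes for which all GF and COL libraries lay above all SPF libraries, and no gene lay below in all. In the 18 ileum libraries alone 2 genes lay above (Efna2 and the J-domain gene Dnajb4) and 5 below (Bfsp1, Ccl4, Gzma, Gzmb and Zbtb7b). These genes were picked after their values were seen. GF and COL mice were both born germ-free, the labels do not say whether they and the SPF mice came from 1 colony, and germ-free birth and colony cannot be told apart here. The call of Efna2 was lost without the first COL library (adjusted p = 0.0522) and with only the 6 libraries in the fit (adjusted p = 0.242).

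**Figure D2:**
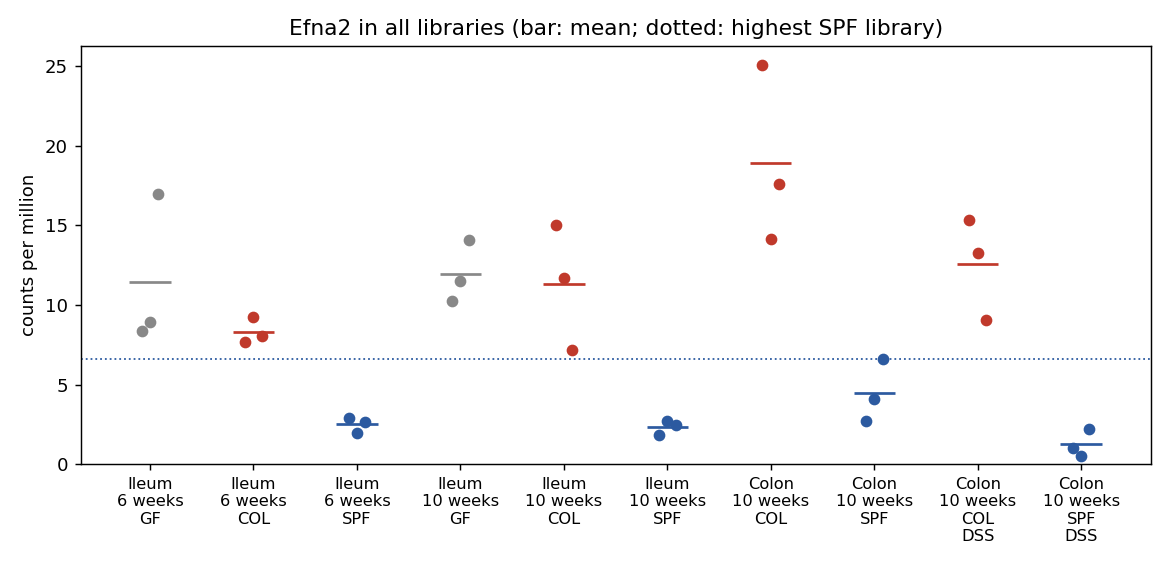
Efna2 in CPM in all 30 libraries, scaled together, by tissue, age, status and DSS treatment, with 1 point per library, a bar at each group mean and a dotted line at the highest SPF library (6.64). All GF and COL points lie above that line, the lowest at 7.20.

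Tnc and Banp also rose. Tnc encodes tenascin-C, a glycoprotein of the matrix that appears in remodelling tissue, and stood at 27.1, 15 and 37.8 CPM in COL against 8.62, 8.78 and 8.64 in SPF, a log2 difference of 1.61 ± 0.30 (adjusted p = 0.0249). The COL libraries spread widely and the SPF libraries hardly at all. Banp, a nuclear protein that binds DNA (chr8:121949750-122029258, plus strand), stood at 92.6, 72 and 65.3 CPM against 25.3, 39.3 and 24, a log2 difference of 1.36 ± 0.25 (adjusted p = 0.0249). It overlaps other annotated genes on both strands. Tnc lost its call without any 1 of the 6 libraries other than the second COL and the first SPF library (largest adjusted p 0.216), and Banp without the first COL, the second COL or the third SPF library (largest 0.117). With only the 6 libraries in the fit neither was called (adjusted p = 0.300 for Tnc and 0.172 for Banp), and Banp was not called with all 30 (0.116).

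Other genes of the gut wall were higher in COL without passing. Of 19 fibroblast and matrix genes tested, Tnc rose, none fell, 5 lay above all SPF libraries (4.91% of all genes did) and the median was 0.36. Col1a1, a chain of fibrillar collagen, stood at 52.3, 78.7 and 58 CPM against 36.6, 53.5 and 35.1. Of 18 smooth muscle genes none passed, 5 lay above (beside the same 4.91% of all genes) and the median was 0.68. This depended on the third SPF library: without it the median was 0.27. Tagln, a smooth muscle actin-binding protein, stood at 18.2 CPM in that library and at 51.7 and 79.9 in the other SPF libraries, against 87.3, 109 and 131 in COL. The part of unequal muscle in the matrix genes was not tested. Without the third SPF library the matrix median was 0.34.

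The 3 genes that fell were Fabp1, which is on the lists of fat absorption and of the proximal small intestine, and Tm4sf4 and Aldh1a7, which are on none of the lists. Fabp1, the liver-type fatty acid binding protein of enterocytes (chr6:71199827-71205023, plus strand), stood at 2.64, 3.03 and 0.513 CPM in COL and at 38.1, 16.4 and 7.2 CPM in SPF, a log2 difference of -3.41 ± 0.58 (adjusted p = 0.047). The SPF libraries spanned a wide range, yet the lowest lay above the highest COL library, and GF ileum was higher than both at 88.4, 47.7 and 72.4 CPM. Tm4sf4, a membrane protein of the tetraspanin-like L6 family, fell from 64.1, 55.1 and 61.5 to 30.3, 21 and 27.7 CPM, by -1.19 ± 0.20 on the log2 scale (adjusted p = 0.0113). It was highest in GF ileum, at 117, 192 and 151 CPM. Aldh1a7, a cytosolic aldehyde dehydrogenase, fell from 43.9, 60.5 and 57.6 to 26.6, 30.4 and 28.2 CPM, by -0.92 ± 0.18 (adjusted p = 0.04). Fabp1 lost its call without any 1 COL library or the second SPF library (largest adjusted p 0.188), Tm4sf4 without the second COL library (0.0984), and Aldh1a7 without any 1 library other than the first SPF library (largest 0.188). Fabp1 also lost its call when low counts were not filtered out (edgeR, adjusted p = 0.0785). With only the 6 libraries none of the 3 was called (adjusted p = 0.402 for Fabp1, 0.194 for Tm4sf4 and 0.402 for Aldh1a7), and with all 30 Tm4sf4 (0.0948) and Aldh1a7 (0.307) were not.

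The 7 genes next in order of p among those lower in COL did not pass with edgeR in the main fit and all were called by DESeq2. Apoa4, an apolipoprotein of chylomicrons, stood at 156, 160 and 119 CPM in COL and 236, 296 and 327 in SPF (-0.98, adjusted p = 0.0661). Guca2b, the gut hormone uroguanylin, stood at 338, 309 and 397 against 484, 627 and 987 CPM, 0.498 times the SPF mean. Acaa1b, a peroxisomal thiolase, differed by -1.26, Vps72, a subunit of chromatin remodelling complexes, by -0.80, and Arg2, the mitochondrial arginase, by -0.84. Apol9b (-1.41) and Fam151a (-2.27) completed the set. Fam151a overlapped between the groups, with 1.92 CPM in the third SPF library against 9.42 and 17.2 in the others, and the other 6 did not overlap. Without that library Fam151a (-2.67, adjusted p = 0.0078) and Acaa1b (-1.43, adjusted p = 0.0381) passed with edgeR. Acaa1b also passed without the first COL library (0.0406), and Apoa4, Apol9b, Arg2, Guca2b and Vps72 passed without the first SPF library (adjusted p 0.00673 for Guca2b to 0.0374 for Vps72). When low counts were not filtered out, Apoa4 (adjusted p = 0.0213), Guca2b (0.0216), Apol9b (0.0393) and Acaa1b (0.048) passed with edgeR.

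Of 19 tested genes of fatty acid oxidation and PPAR targets none passed, and 4 lay below all SPF libraries (5.3% of all genes did). By their estimates 17 were lower than in SPF, as were 6881 of all 13233 genes, and the median was -0.46. Pdk4, the kinase that turns pyruvate dehydrogenase off in fasting, stood at 5.98, 3.36 and 2.74 CPM against 9.68, 11.4 and 9.12 (-1.33, adjusted p = 0.188). Vnn1, a pantetheinase, differed by -0.87 and passed without the first SPF library (adjusted p = 0.0428). Of 19 genes of fat absorption Fabp1 fell, none rose, 13 were lower and 3 lay below, beside the same shares of all genes. Their median was -0.20. Creb3l3, a transcription factor of triglyceride metabolism, differed by -0.69. Without the first SPF library 4 fat absorption genes fell, among them Apoa4 and Creb3l3. In that setting 97 of all genes were called in either direction, against 12 in the main fit.

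Genes of the upper small intestine and of the brush border moved beside these. Of 11 tested genes of the proximal small intestine, a list that shares Fabp1 and Apoa4, Fabp1 fell and the median was -0.20. By their estimates 9 were lower (6881 of all 13233 genes were), and 3 lay below all SPF libraries (5.3% of all genes did). Lct, the lactase of the brush border, stood at 0.176, 0 and 0.171 CPM in COL and 1.19, 4.59 and 0.960 CPM in SPF, which rests on 2 and 34 reads in all. Gip, a hormone of upper gut endocrine cells, differed by -1.01 with overlapping libraries. Of 17 brush border and digestion genes none passed, 15 were lower and 2 lay below, beside the same shares of all genes. Their median was -0.21. The part of unequal enterocyte or upper gut content in the differences of the fat genes was not tested.

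Among 10 tested genes of ileal bile acid handling none passed. Fgf15, the hormone that tells the liver that bile acids have been absorbed, stood at 10.4, 5.05 and 0 CPM in COL and 23.3, 16.4 and 68.7 in SPF, a log2 difference of -2.75 ± 1.03 (adjusted p = 0.512), or -1.96 without the third SPF library. Nr0b2, a repressor that bile acids induce, stood at 4.4, 4.54 and 0.171 CPM against 14.5, 13.6 and 26.9 (-2.55, adjusted p = 0.496), or -2.20 without that library. Neither gene overlapped between the groups, but the spread within them was wide. The transporter Slc10a2, which takes bile acids up, differed by 0.09, and the carrier Fabp6 by -0.75 with overlapping libraries. The list's median was -0.29.

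Genes of T cells and intraepithelial lymphocytes were lower in late colonized ileum, though none passed the test in the fit of all ileum libraries. Of 21 tested, 19 were lower (6881 of all 13233 genes were) and 9 lay below all SPF libraries (5.3% of all genes did). The median log2 difference was -0.94, or -0.79 without the third SPF library. Gzma, a granzyme of cytotoxic lymphocytes, stood at 70.9, 45.1 and 63.3 CPM in COL and 155, 193 and 530 in SPF (-2.28, adjusted p = 0.292). Ccl5, a chemokine that T cells release, stood at 14.3, 16 and 17.3 against 109, 135 and 289 CPM (-3.47, adjusted p = 0.243), and it passed with only the 6 libraries in the fit (adjusted p = 0.00829). Cd8a, a chain of the CD8 coreceptor, stood at 2.82, 4.2 and 3.25 against 9.42, 14.4 and 19.2 CPM (-2.04, adjusted p = 0.319). The NK receptor Klrd1, present on many intraepithelial T cells, differed by -2.28, the integrin Itgae that holds such cells in the epithelium by -1.09 and the signalling chain Cd3e by -1.32.

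The 6 T cell markers summed to 76.5 to 92.4 CPM in COL, 221 to 620 CPM in SPF and 1.62 to 2.64 CPM in GF. Gzma, whose levels are given above, made up most of each sum in COL and SPF. Taken singly, 5 of the 6 markers lay below all SPF libraries in COL (5.3% of all genes did). COL ileum thus held more of these transcripts than GF ileum and less than SPF ileum in these libraries. Gzma and Cd8a rose in COL over GF (adjusted p = 0.00104 and 0.00184), whereas Ccl5 and Klrd1 did not pass there. At 6 weeks Gzma differed between COL and SPF by -3.85 and Cd8a by -2.47, and the test of a change in the difference between the ages was not passed (adjusted p = 0.576 and 0.917). Without the third SPF library, which had the highest Gzma and Ccl5, these differences were -1.54 for Gzma and -2.95 for Ccl5.

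**Figure D3:**
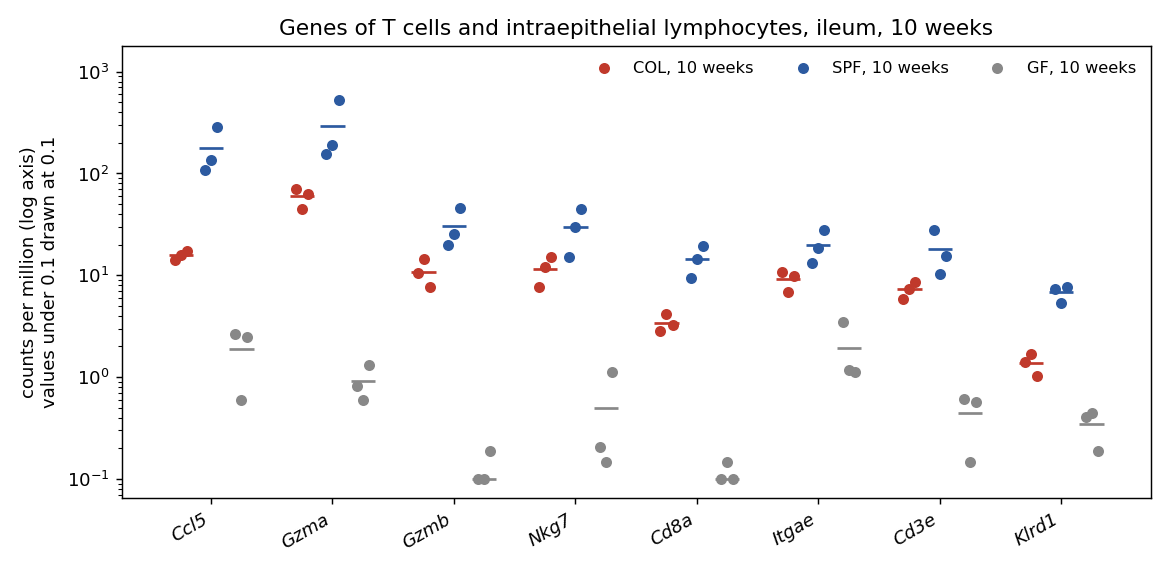
CPM (log axis) of 8 genes of T cells and intraepithelial lymphocytes in COL, SPF and GF ileum at 10 weeks, with 1 point per library and a bar at each mean, values under 0.1 drawn at 0.1. For Ccl5 the COL points sit between 14.3 and 17.3, the SPF points between 109 and 289, and the GF points under 3.

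No gene on the lists of plasma cells and IgA, MHC class II and epithelium induced by bacteria passed at 10 weeks. Of 12 plasma cell and IgA genes none passed and the median was 0.12, and the J chain that joins IgA stood at 1142, 875 and 1262 CPM against 618, 965 and 828. Pigr, which carries IgA across the epithelium, differed by -0.08. Of 10 MHC class II genes none passed and the median was -0.02. Of 19 epithelial genes that bacteria induce none passed, 3 lay above all SPF libraries (4.91% of all genes did), none lay below, and the median was 0.15, with a log2 difference of 0.52 ± 0.39 for the lectin Reg3b, -0.04 ± 0.48 for Reg3g and -0.25 ± 0.46 for Nos2, the inducible nitric oxide synthase. Without the third SPF library the median was 0.46, 5 lay above (8.30% of all genes did in that setting) and Reg3g differed by 0.59. When the first SPF library was left out, 1 member fell, in a setting where 97 of all genes were called. These intervals are wide, and a p that misses the threshold does not show that the groups are alike.

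The 3 members that lay above were Saa2, Saa1 and Duoxa2. Saa2, a close relative of Saa1, had the smallest p of the list (adjusted p = 0.432) and stood at 0.704, 1.18 and 1.37 CPM against 0, 0.2 and 0, which rests on 19 reads and 1 read. Saa1, an acute phase apolipoprotein of the ileum, stood at 574, 924 and 1827 CPM against 161, 326 and 412 (1.90 ± 0.72, adjusted p = 0.518). Duoxa2, the maturation factor of an epithelial peroxide generator, stood at 31.9, 73.8 and 43.4 against 11.3, 8.18 and 30.7 CPM. Fut2, which fucosylates epithelial surfaces, stood at 11.6, 74.2 and 39 against 1.99, 3.19 and 16.3 CPM, and its groups overlapped. Slc6a14, an amino acid transporter from another list, stood at 15.1, 37.5 and 83.5 against 3.45, 0 and 6.24 CPM. Reads of Saa1 that also match its close relatives were not counted.

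Paneth cell genes leaned the other way. Of 15 tested none passed, 14 were lower in COL (6881 of all 13233 genes were) and the median was -0.47. Lyz1, the Paneth cell lysozyme, stood at 792, 1006 and 1089 CPM in COL and 688, 1554 and 2983 in SPF, and Mmp7, which activates defensins, at 248, 232 and 225 against 165, 407 and 707. The SPF libraries spanned both sides of the COL libraries. Without the third SPF library the median was -0.11. When the first SPF library was left out, 5 Paneth genes fell, Lyz1 and Mmp7 among them. In that setting 97 of all genes were called in either direction, against 12 in the main fit. The single libraries thus decide this group.

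**Figure D4:**
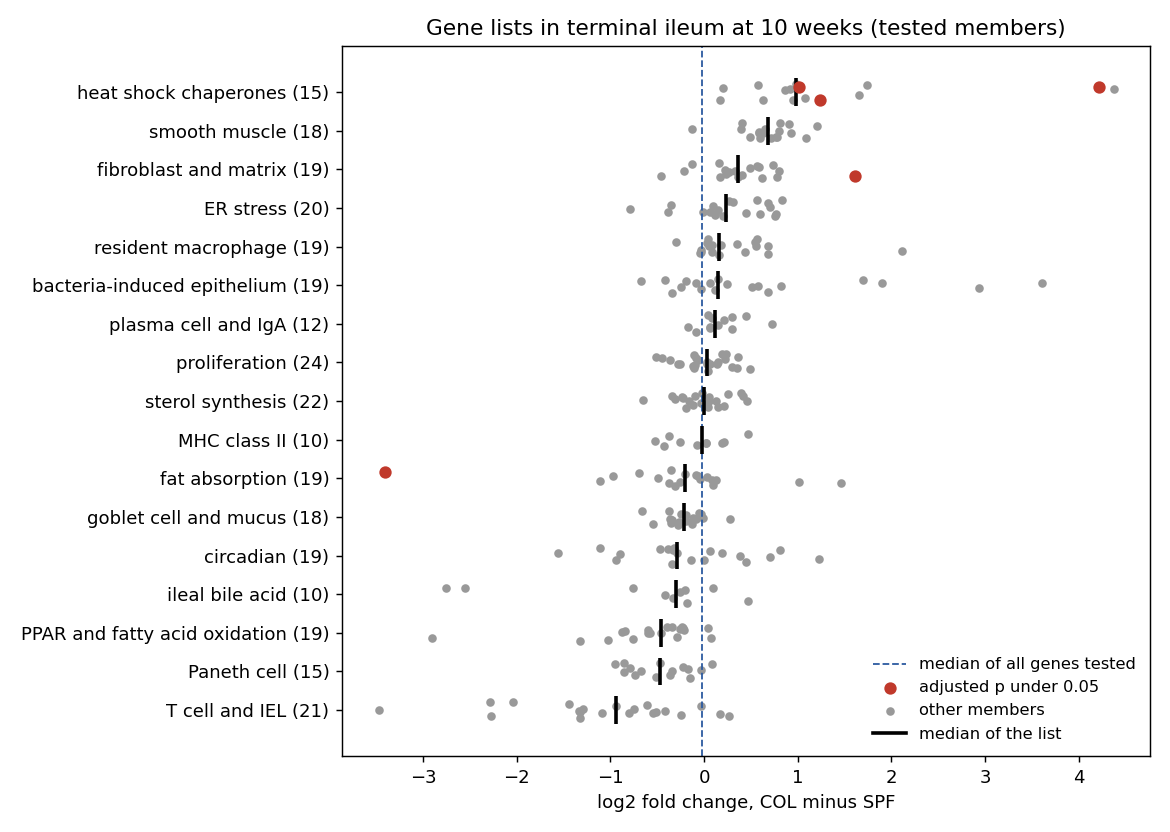
Log2 fold change, COL minus SPF, at 10 weeks for the tested members of 17 gene lists (number tested in brackets), with 1 point per gene, red where the adjusted p was under 0.05, a black line at each list's median and a dashed line at the median of all genes tested (-0.02). The heat shock list has the highest median (0.98) of those drawn and the T cell list the lowest (-0.94).

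The difference between COL and SPF changed between 6 and 10 weeks for 22 genes (0.166% of those tested), with 10 higher at 10 weeks and 12 lower, by edgeR's test of the interaction. The 6 libraries of each age are separate. In COL, age and time since colonization (1 week at 6 weeks, 5 weeks at 10 weeks) change together and cannot be told apart. The 10 genes with the most reads held 11.8 to 18.8% of assigned reads in the 6-week libraries and 7.44 to 13.2% in the 10-week libraries. At 6 weeks itself 13 genes (0.0982%) were called, 3 higher and 10 lower in COL. Of the 10 genes whose difference was higher at 10 weeks than at 6 weeks, 3 are on the plasma cell list (Jchain, Tnfrsf17 and Derl3), and H2-DMb1, Gbp7, Ly6c2 and Ceacam10 are on the lists of MHC class II, interferon gamma response, monocytes and bacteria-induced epithelium. Jchain, Tnfrsf17, Derl3, H2-DMb1, Ly6c2, Gbp7 and Ceacam10 were lower in COL at 6 weeks by their estimates and differed by 0.06 to 0.52 at 10 weeks. The other 3 were Gsr, Rgs4 and Mbl2, of which Mbl2 stood under 4 CPM in each of these libraries. Jchain stood at 52.6, 58.2 and 28 CPM in COL at 6 weeks, against 648, 617 and 677 in SPF (-3.81, adjusted p = 0.000136), and at 10 weeks the groups overlapped (0.44), an interaction of 4.26 ± 0.51 (adjusted p = 0.00114). Ly6c2, a surface protein of lymphocytes and monocytes, stood at 2.44, 1.55 and 2.12 against 21.6, 24.8 and 30.5 CPM at 6 weeks and at 50.3, 48.3 and 43.8 against 35.7, 44.3 and 41.8 at 10 weeks, the smallest adjusted p of the interaction (4e-06). H2-DMb1, which loads peptides onto MHC class II, differed by -2.12 at 6 weeks and by 0.47 at 10 weeks.

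Of the 12 genes whose difference went down, Fabp1, Apoa4 and Creb3l3 are on the list of fat absorption and Pdk4 is on that of PPAR targets. Fabp1, Apoa4, Creb3l3, Pdk4, Tm4sf4, Arg2, Apol9b, Fam151a, Bche, Mknk2 and Mir215 were each higher in COL than in SPF at 6 weeks and lower at 10 weeks by their estimates. Apoa4 stood at 283, 202 and 229 CPM in COL and 101, 82.6 and 109 in SPF at 6 weeks (1.29, adjusted p = 0.00384), where at 10 weeks it stood at 156, 160 and 119 against 236, 296 and 327, an interaction of -2.26 ± 0.30 (adjusted p = 0.000334). Neither group overlapped between the ages: the 10-week libraries lay above those of 6 weeks in SPF and below them in COL. Tm4sf4 stood at 71.4, 63.3 and 58.7 against 32.3, 39.2 and 50.9 CPM at 6 weeks (interaction -1.85 ± 0.28, adjusted p = 0.00114).

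The chaperones were not among the 22. Hspa1b stood at 79.4, 339 and 185 CPM in COL and 32.6, 32.5 and 18.9 in SPF at 6 weeks, a difference of 2.84 that missed the threshold (adjusted p = 0.0904), and the interaction was 1.37 ± 0.74 (adjusted p = 0.557). The median of the heat shock list was 0.40 at 6 weeks. The count of 22 fell to between 9 and 13 without the second or the third COL library of 10 weeks, the first or the third COL library of 6 weeks or the first or second SPF library of 6 weeks, and rose to 168 without the first SPF library of 10 weeks and to 37 without the second COL library of 6 weeks. Apoa4, Arg2, Derl3, H2-DMb1, Jchain, Ly6c2 and Tm4sf4 kept their call in all 16 alternatives run.

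**Figure D5:**
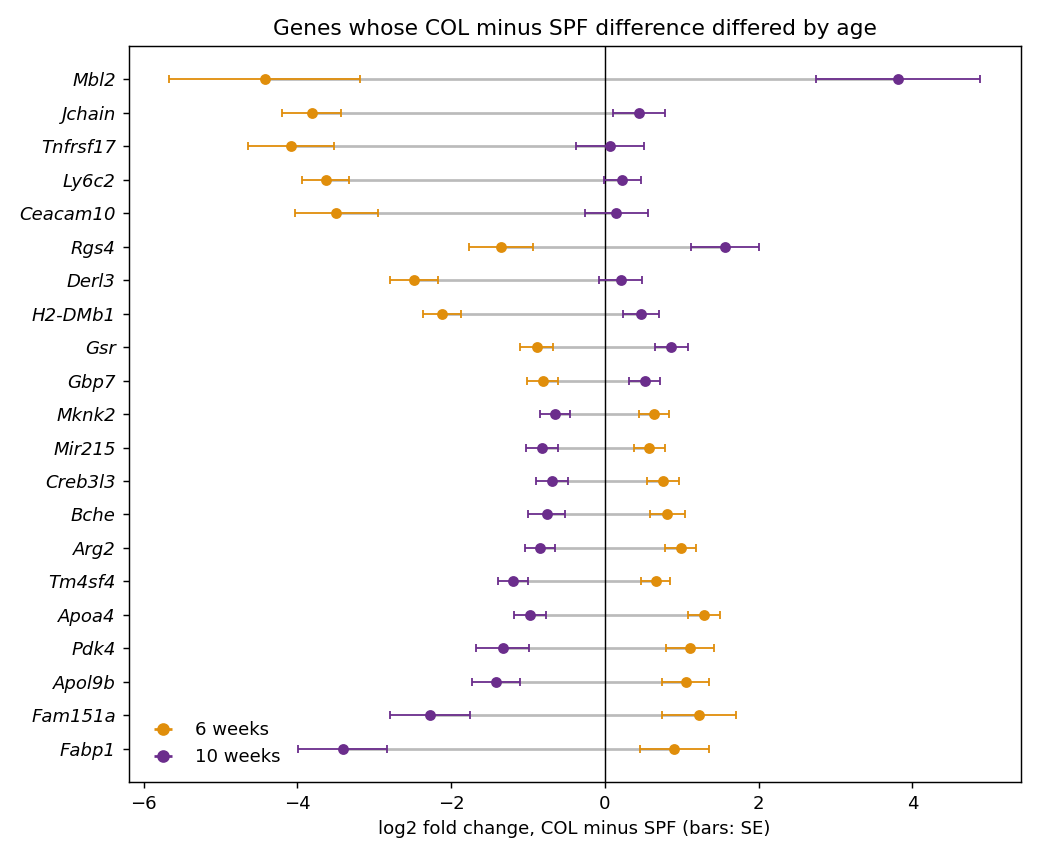
Log2 fold change, COL minus SPF, at 6 weeks (orange) and 10 weeks (purple) for 21 of the 22 genes whose difference was another at 10 than at 6 weeks, with bars of 1 SE. Jchain goes from -3.81 to 0.44, and Apoa4 from 1.29 to -0.98.

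In untreated colon of the same age and statuses no gene was called between COL and SPF (0% of 12855 tested, 988 at an unadjusted p under 0.05, 28 called by DESeq2). No gene was called when the difference in ileum was tested against that in colon (0% of 13807 genes, 914 at an unadjusted p under 0.05, 5 called by DESeq2, and 7 without the first SPF ileum library, 8 without the third SPF colon library and 1 without the third COL or the first SPF colon library). The ileal and colonic differences were side by side as follows. Hspa1b differed by 4.21 in ileum and 2.08 in colon (adjusted p = 0.266), Hsp90aa1 by 1.24 and 1.32 and Ahsa2 by 1.42 and 1.20. The heat shock list had a median of 0.98 in ileum and 0.77 in colon. Efna2 differed by 2.30 and 2.04 and Banp by 1.36 and 1.57, while Tnc differed by 1.61 in ileum and -0.37 in colon (interaction adjusted p = 0.431). Fabp1 was too low in colon to be tested there.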

How the data were processed

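Total RNA of terminal ileum or colon was made into 3′ tag libraries with a QuantSeq kit for Ion Torrent, per the labels' protocols. The deposited files hold raw read counts per gene symbol, 24746 symbols and 5 summary lines per library, and the submitters' processing notes name Trimmomatic 0.36, FastQC 0.11.5, STAR 2.5.3a, HTSeq and build mm10. The annotation, the HTSeq version and its strand setting are not given in the sources used here. Reads assigned to genes were 46.5 to 50.7% of those listed for the 6 libraries compared, and 28.0 to 34.3% matched several places and were not counted, so near-identical genes such as Hspa1a and Hspa1b are uncertain. Summary lines were left out of library sizes.

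The 18 ileum libraries in 6 groups were fitted together in R 4.3.3 with edgeR 4.0.16 (filterByExpr, TMM scaling, robust quasi-likelihood test), the 12 colon libraries apart and all 30 together for the test between tissues. The threshold for a call was 0.05 after Benjamini-Hochberg adjustment over all genes of a fit. SEs were obtained by dividing each log2 fold change by the root of its F statistic. Alternatives were DESeq2 1.42.0, RLE scaling, no filter on low counts, other sets of libraries, a replicate block and leaving out each library. Counts simulated from the fit's own spread, with no outlying library, were also run through the fit. They cannot speak to the dependence on single libraries. Same-numbered COL and SPF libraries did not deviate together (residual correlations -0.15, -0.20 and 0.04), so no pairing was used. Locations are from GENCODE vM21.

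The 41 gene lists and the genes named were chosen with earlier results of these data known. Named genes are the called genes ranked by log2 fold change (up to 15 in each direction, filled to 10 by the smallest p, without predicted genes and small RNAs), up to 4 members per list with the smallest p, and a list of marker genes. Other list members and the genes called in the test between ages are also named, after their values were seen. Of the 22 called in that test, 1 is not reported here.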

Additional observations from a re-analysis of the deposited data

Results flagged for a closer look

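In 22 of 13233 genes tested (0.166%) the COL minus SPF difference in ileum at 10 weeks was another than at 6 weeks. The calls are from edgeR's test of the interaction (adjusted p under 0.05), with 10 genes positive and 12 negative. The shares of list members below stand beside these shares of all genes, and the lists were chosen with earlier results known. Age and time since colonization cannot be told apart in that test. The interaction, on the log2 scale, was positive for 3 of 12 tested plasma cell and IgA genes, with 4.26 for Jchain, 4.15 for Tnfrsf17 (the receptor BCMA of plasma cells) and 2.69 for Derl3, and for 1 of 10 MHC class II genes, with 2.59 for H2-DMb1. It was 1.32 for the interferon-induced GTPase gene Gbp7. It was also positive for Ly6c2 (3.86), Ceacam10 (3.64), Rgs4 (2.92) and Gsr (1.75). Gsr, which encodes glutathione reductase, stood at 94.4, 137 and 116 CPM in COL and 219, 201 and 223 in SPF at 6 weeks, and at 270, 193 and 152 against 114, 93.2 and 132 at 10 weeks, so that the groups did not overlap at either age and swapped order. Mbl2 had a fitted interaction of 8.24, a value that depends on the prior count because 2 of the 3 COL libraries of 6 weeks had no read.

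The interaction was called and negative for 3 of 19 fat absorption genes, where 12 of all 13233 genes were. These were Fabp1 (-4.31), Apoa4 (-2.26) and Creb3l3 (-1.45). It was also negative for Pdk4 (-2.44) of the PPAR list. It was negative as well for Fam151a (-3.50), Apol9b (-2.46), Tm4sf4 (-1.85), Arg2 (-1.83), Bche (-1.57), Mir215 (-1.39, counted on its precursor transcript as the files name it) and Mknk2 (-1.28). All 22 kept their sign in all 16 alternatives run, and 7 of them kept the call in each. Ceacam10 kept its call in 4 of the 16 and Rgs4 in 5.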

How the results depend on the processing

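RLE scaling (12) and no filter on low counts (16) left the count of calls between COL and SPF near 12. Without the filter, however, Fabp1 lost its call, and Apoa4, Guca2b, Acaa1b and Apol9b gained one. The count was 47 with DESeq2, 7 with all 30 libraries in the fit, 4 with only the 6 libraries, and 5 to 97 when 1 library was left out. With a replicate block it was 6, and 5 with the block and only the 6 libraries. Of the 12, only Ahsa2 and Hspa1b stayed with only the 6 libraries. With the block Ahsa2, Hsp90aa1, Efna2, Tm4sf4, Fabp1 and Banp stayed, and with both Hspa1b alone did (adjusted p = 0.155 for Ahsa2, 0.306 for Hsp90aa1 and 0.545 for Efna2). For the test between ages, DESeq2 called 111 genes, the replicate block 16, and leaving out 1 library gave 9 to 168. For the test between tissues, DESeq2 called 5, the block none, and leaving out 1 library gave 0 to 8. DESeq2 called 62 genes between COL and SPF at 6 weeks and 28 in colon. Of 602 list genes tested in the main fit 5 were called, where 12 of all 13233 genes were. List members called numbered 16 with DESeq2, 2 with the replicate block, 3 with only the 6 libraries and 1 to 18 without 1 library. Calls over all genes in the same settings are given earlier in this paragraph. The causes were not tested.

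The block rests on shared numbers only. The signs of the 68 genes examined held in all alternatives apart from 7 with small estimates. Of these, Reg3g was 0.15 with the block and only the 6 libraries (-0.43 to 0.59 without 1 library). Usp34 was 0.0073 with the block, 0.0083 with only the 6 libraries and 0.020 with both (-0.092 to 0.14 without 1 library). The others reversed only when 1 library was left out: Hspd1 (-0.012 to 0.48), Hsf1 (-0.11 to 0.35), Slc10a2 (-0.11 to 0.27), Pigr (-0.24 to 0.12) and Nos2 (-0.48 to 0.29). Of 533 list medians under an alternative, 520 moved by less than the spread between libraries. An outlying library itself widens that spread, so this count cannot show that the medians were stable. Without the first SPF library the B cell follicle median went from -0.17 to 3.95. Without the third SPF library the smooth muscle median went from 0.68 to 0.27 and the Paneth median from -0.47 to -0.11. Depth of 2233837 reads in the third SPF library limits genes of a few CPM.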
